A study of Homo sapiens with 12 samples.

Results

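HOX genes, the clustered homeobox genes, were followed in the human clear cell renal carcinoma line RCC4. They were taken as every gene whose symbol is HOXA, HOXB, HOXC or HOXD followed by a number and that had a probe set assigned to that gene alone. This gave 24 of the 39 HOX genes listed in RefSeq, measured by 31 probe sets, among 11963 genes measured. Where a gene had several probe sets, the one with the highest mean over the 12 arrays stood for it. The measured genes were 1 of 11 in the HOXA cluster on chromosome 7 (HOXA2), 9 of 10 in HOXB on chromosome 17 (HOXB1, HOXB2, HOXB3, HOXB5, HOXB6, HOXB7, HOXB8, HOXB9 and HOXB13), 7 of 9 in HOXC on chromosome 12 (HOXC4, HOXC5, HOXC6, HOXC8, HOXC10, HOXC11 and HOXC13) and 7 of 9 in HOXD on chromosome 2 (HOXD1, HOXD4, HOXD9, HOXD10, HOXD11, HOXD12 and HOXD13). The other 15 HOX genes had no probe set assigned to them alone in the annotation used and were not analysed here. The array may still hold probes that read them. HOXC6 was singled out because its response to the medium differed between the lines. Its responses, their average and their difference are therefore given as descriptions with no test.

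RCC4 lacks functional VHL, the tumour suppressor that marks the hypoxia-inducible factors for degradation. The study compared RCC4 cells reconstituted with VHL (VHL cells) and RCC4 cells labelled Vec (Vec cells), each kept for 6 h in cystine-deprived DMEM or in control full DMEM. The 4 groups were deprived VHL cells, control VHL cells, deprived Vec cells and control Vec cells, with 3 arrays each. The growth medium held 10% FBS and the deprived medium 10% dialysed FBS, so the deprivation comparison also holds the change of serum. The labels do not say whether the VHL or the Vec line is 1 clone or a pool, and the line comparison holds any such difference. Replicates are labelled biological, and nothing says that they came from separate cultures, so the p-values measure the spread between these arrays, which may be in part technical.

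HOX proteins are transcription factors that bind DNA through a homeodomain, often together with the TALE homeodomain proteins of the PBX and MEIS families. The genes lie in 4 clusters, and their order along each cluster follows the order of their expression along the body axis of the embryo. Genes of the same number in different clusters are paralogues. In embryos Polycomb complexes hold silent HOX genes inactive, Trithorax complexes maintain active ones and retinoic acid switches many of them on. In the mouse the paralogues of group 11 are needed for the metanephric kidney to form, and Hoxb7 is active in the ureteric bud, which gives rise to the collecting ducts. Adult kidney cells and tumours derived from them keep a part of this expression.

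Array medians lay between 7.12 and 7.18 on the log2 intensity scale, and arrays of a group correlated at 0.998 to 0.999 across genes. The VHL probe set itself was dim, averaging 5.94 in deprived VHL cells, 5.99 in control VHL cells, 5.99 in deprived Vec cells and 5.85 in control Vec cells, so it could not check the labels. Of 10 renal markers 9 were measured and all 9 lay above the background level defined below, among them PAX8 with a mean of 10.92 and VIM with 14.23. None of 5 endothelial markers, 1 of 4 measured blood markers (HBB, 6.98) and 2 of 5 fibroblast markers (COL1A1, 8.04, and DCN, 6.31) did so. The summed log2 levels of the renal markers differed between the lines. They spanned 96.6 to 96.8 in deprived VHL cells, 96.4 to 96.6 in control VHL cells, 97.8 to 98.1 in deprived Vec cells and 97.6 to 97.8 in control Vec cells. Single markers went both ways. In VHL relative to Vec cells CDH16 (1.22 in deprived, 1.09 in control medium) and PAX2 (0.30 and 0.10) were higher. The other renal markers were lower, most of all KRT19 (-1.48 and -1.36) and KRT8 (-0.65 and -0.61). Whether these marker differences have a part in the HOX differences between the lines was not tested.

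Over the 12 arrays, 15 HOX genes lay above background and 9 at background level. The level of background was set from 39 olfactory receptor genes, which kidney cells are not known to use, as the 90th percentile of their means, 6.15. The 15 expressed genes were HOXA2, HOXB2, HOXB5, HOXB6, HOXB7, HOXB9, HOXC4, HOXC5, HOXC6, HOXC10, HOXC11, HOXC13, HOXD1, HOXD4 and HOXD9. Those at background level were HOXB1, HOXB3, HOXB8, HOXB13, HOXC8, HOXD10, HOXD11, HOXD12 and HOXD13. HOXC13, with a mean of 6.30, was just above the threshold and HOXB3, with 6.07, was just under it. The highest mean of an olfactory receptor gene was 7.04. HOXA2 (6.75), HOXC5 (6.63), HOXB9 (6.56), HOXD1 (6.31) and HOXC13 lay under that value, so they are less clearly expressed than the rest. Probe sets differ in brightness, so this split is a description and gives no order of abundance among the genes. With the threshold at the median of all genes, 7.82, 7 HOX genes lay above it. HOXD1 was above the background level on all 6 Vec arrays and on 0 of 6 VHL arrays. Standard deviations within groups ran from 0.05 to 0.16 over the HOX genes, with a median of 0.08, and the median over all genes was also 0.08.

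**Figure D1:**
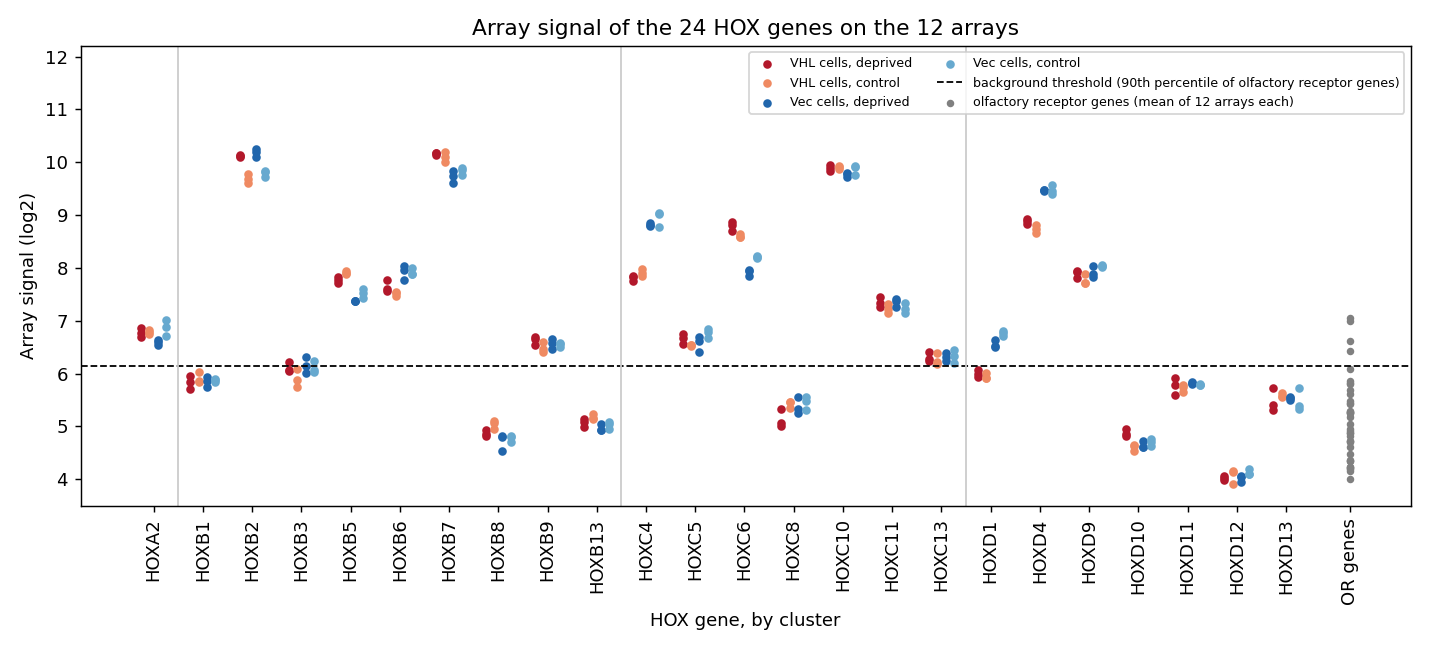
Levels of the 24 HOX genes (one position per gene along the horizontal axis, grouped by cluster) as log2 array signal on the vertical axis, one point per array and one colour per group, with the background threshold of 6.15 as a dashed line and the means of the 39 olfactory receptor genes in grey. HOXB2, HOXB7, HOXC4, HOXC6 and HOXD4 lie above the threshold on all 12 arrays, and the posterior HOXD genes HOXD10 to HOXD13 lie below it.

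HOXB2 rose with cystine deprivation in both lines, and few other HOX genes passed the test. HOXB2, which patterns the hindbrain in mouse embryos, was 10.13, 10.12 and 10.09 in deprived VHL cells, against 9.77, 9.60 and 9.68 in control VHL cells (log2 values of the 3 arrays). The Vec arrays read 10.19, 10.10 and 10.25 in deprived Vec cells, against 9.82, 9.71 and 9.84 in control Vec cells. In each line every deprived array was above every control array. The rise was 0.43 ± 0.06 log2 units in VHL cells (1.35-fold, limma adjusted p = 0.000443) and 0.39 ± 0.06 in Vec cells (1.31-fold, adjusted p = 0.00191), where ± gives the standard error throughout. Changes at least as large were seen in 1.84% of all genes in VHL cells and in 1.06% in Vec cells. The rise in VHL cells minus that in Vec cells was 0.04 ± 0.08, with a 95% interval of -0.14 to 0.22. HOXB2 overlaps the antisense gene HOXB-AS1 in the annotation, and where its probes lie is not known here.

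In Vec cells the genes called, at an adjusted p under 0.05, were 3 of the 23 HOX genes other than HOXC6 (13.0%), against 4.18% of all genes. Besides HOXB2, these were HOXA2 and HOXD1, both lower in deprived cells. HOXA2, which sets the identity of the second branchial arch in mouse embryos, was 6.63, 6.59 and 6.54 in deprived Vec cells, against 7.02, 6.71 and 6.88 in control Vec cells. The groups did not overlap, and the difference was -0.28 ± 0.07 (adjusted p = 0.0439). HOXD1, which in mice shapes the wiring of pain-sensing neurons, was 6.53, 6.63 and 6.50 in deprived Vec cells, against 6.81, 6.76 and 6.71 in control Vec cells. These arrays did not overlap either, with a difference of -0.21 ± 0.05 (adjusted p = 0.0497). Both calls sat at the threshold. That of HOXA2 was lost without any 1 array other than replicate 2 of control Vec cells and replicate 3 of deprived VHL cells, with adjusted p up to 0.149. The HOXD1 call was lost without any 1 array other than replicate 1 of deprived VHL cells, with adjusted p up to 0.161, and a dimmer second HOXD1 probe set gave 0.10.

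In VHL cells 2 of the 23 genes (8.70%) were called, HOXB2 and HOXD10, against 11.6% of all genes. Neither share was tested against that of all genes. The share in Vec cells rests on the HOXA2 and HOXD1 calls, both also lost with a fit of the groups compared alone (adjusted p = 0.0945 for HOXA2 and 0.0968 for HOXD1), where 1 of 23 genes (4.35%) was called against 2.60% of all genes. HOXD10, a posterior gene that in mice patterns the hindlimb and its motor neurons, was 4.82, 4.85 and 4.96 in deprived VHL cells, against 4.63, 4.54 and 4.65 in control VHL cells. All 3 deprived arrays were above the control arrays, and the difference was 0.27 ± 0.06 (adjusted p = 0.00846). Every one of these values lay under the background level, so no fold is given for HOXD10. In the same VHL arrays HOXA2 was 6.76, 6.70 and 6.87 in deprived VHL cells, against 6.78, 6.82 and 6.76 in control VHL cells, and HOXD1 was 6.06, 5.93 and 5.98 in deprived VHL cells, against 5.92, 5.91 and 6.01 in control VHL cells. Their groups overlapped in VHL cells, with differences of -0.01 ± 0.07 for HOXA2 and 0.05 ± 0.05 for HOXD1.

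Averaged over the lines, 2 of the 23 genes were called with deprivation, HOXB2 higher and HOXB5 lower, against 15.6% of all genes. HOXB5, which acts in mouse enteric neuron precursors, was 7.71, 7.78 and 7.83 in deprived VHL cells, against 7.90, 7.94 and 7.88 in control VHL cells. The Vec arrays of HOXB5 read 7.37, 7.37 and 7.37 in deprived Vec cells, against 7.53, 7.42 and 7.61 in control Vec cells. Deprived arrays were below control arrays in each line, and the average difference was -0.14 ± 0.04 (adjusted p = 0.0223). The call was lost without replicate 3 of control Vec, replicate 2 of control VHL or replicate 1 of deprived VHL cells (adjusted p of 0.0528 to 0.0551). A second HOXB5 probe set went the other way, with 0.14 in VHL and 0.09 in Vec cells, and the mean of both probe sets gave -0.02 over the lines (adjusted p = 0.851).

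In each line on its own, the uncalled HOX genes had differences of -0.29 to 0.21 in VHL cells (21 genes) and -0.20 to 0.11 in Vec cells (20 genes). Their 95% intervals reached from -0.50 to 0.42 in VHL cells and from -0.36 to 0.28 in Vec cells, so smaller changes could not be resolved with 3 arrays a group. The median over the 23 genes was 0.04 in VHL cells, beside 0.01 over all genes. In Vec cells the medians were -0.05 over the HOX genes and 0.01 over all genes.

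**Figure D2:**
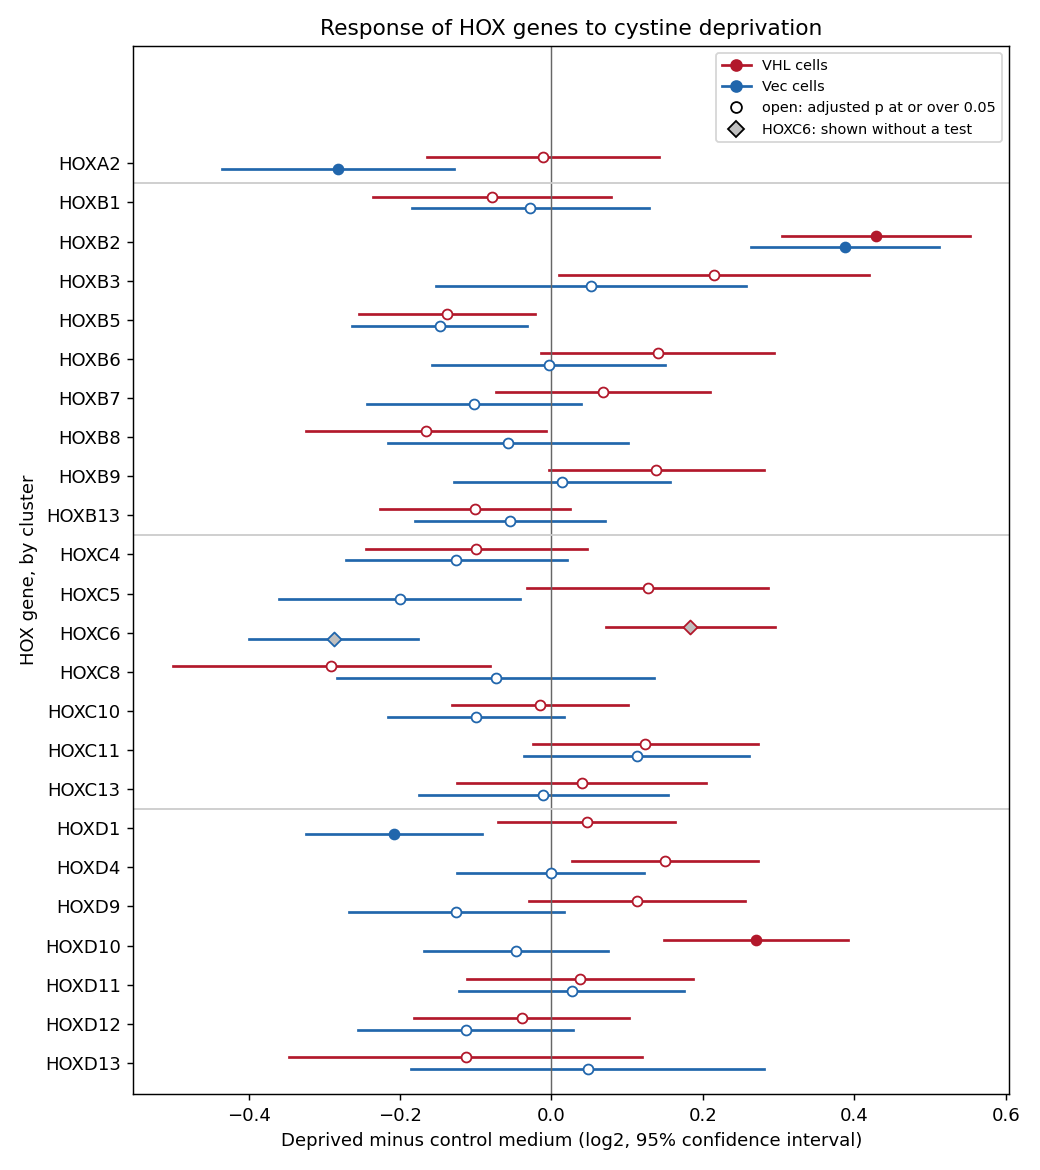
Deprived minus control medium for each of the 24 HOX genes in VHL cells (red) and Vec cells (blue), as log2 differences with 95% confidence intervals; filled points were called at an adjusted p under 0.05, and the grey diamonds of HOXC6 are shown without a test. HOXB2 stands at 0.43 in VHL cells and 0.39 in Vec cells, and HOXC6 lies on opposite sides of 0 in the 2 lines.

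More HOX genes passed the test between the lines than between the media. VHL cells had lower HOXC4, HOXD4, HOXD1 and HOXB6 and higher HOXB5 and HOXB7 than Vec cells in both media. In deprived medium 9 of the 23 HOX genes were called, 4 higher and 5 lower in VHL cells, against 47.2% of all genes (24.2% higher, 23.0% lower). In control medium 9 were also called, 3 higher and 6 lower, against 46.1% of all genes (23.1% higher, 23.0% lower). The share of HOX genes called, 39.1% in each medium, was under that of all genes. Without _x_at and _s_at probe sets, which can read related transcripts, it was 16.7% of 18 genes in deprived and 27.8% in control medium, against 41.9% and 40.9% of all genes. These differences between shares were not tested. The comparisons in the 2 media use different arrays, but each shares its arrays with the deprivation comparisons above.

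HOXC4, whose paralogue group acts in neck vertebrae in the mouse, was lower in VHL cells by about one log2 unit. It was 7.84, 7.83 and 7.75 in deprived VHL cells, against 8.86, 8.78 and 8.81 in deprived Vec cells. In control medium it was 7.89, 7.97 and 7.85 in control VHL cells, against 9.03, 8.77 and 9.03 in control Vec cells. Every VHL array was below every Vec array, with differences of -1.01 ± 0.07 in deprived medium (adjusted p = 4.29e-08) and -1.04 ± 0.07 in control medium (adjusted p = 3.38e-08). Averaged over the media HOXC4 was 2.03-fold lower in VHL cells, and 4.05% of all genes differed at least as much. HOXD4, its paralogue, was 8.93, 8.83 and 8.90 in deprived VHL cells, against 9.48, 9.45 and 9.48 in deprived Vec cells. In control medium HOXD4 was 8.65, 8.74 and 8.80 in control VHL cells, against 9.39, 9.45 and 9.57 in control Vec cells. The lines did not overlap, and the differences were -0.59 ± 0.06 in deprived medium (adjusted p = 1.54e-06) and -0.74 ± 0.06 in control medium (adjusted p = 1.80e-07). HOXD1, with the array values above, was lower, with differences of -0.56 ± 0.05 log2 units in deprived medium (adjusted p = 1.44e-06) and -0.81 ± 0.05 in control medium (adjusted p = 4.19e-08). Since all 6 VHL arrays of HOXD1 lay under the background level, these differences are limited by that level on the VHL side. The dimmer HOXD1 probe set, with a mean of 4.59, gave -0.05 in deprived and 0.01 in control medium. HOXD4 overlaps HOXD3, and HOXD1 overlaps the antisense gene HAGLR, in the annotation.

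The 250 bases before the start of HOXC4, HOXD4 and HOXD1 are shown because these 3 had the most negative differences between the lines among HOX genes in both media, and VHL acts on factors that bind the core ACGTG of the hypoxia response element. They are RefSeq sequences on GRCh38.p14, each on the plus strand, at chr12:54016638-54016887 for HOXC4, chr2:176151300-176151549 for HOXD4 and chr2:176188418-176188667 for HOXD1. The HOXC5 entry has the same window as HOXC4. Capitals mark matches to ACGTG on either strand.
HOXC4: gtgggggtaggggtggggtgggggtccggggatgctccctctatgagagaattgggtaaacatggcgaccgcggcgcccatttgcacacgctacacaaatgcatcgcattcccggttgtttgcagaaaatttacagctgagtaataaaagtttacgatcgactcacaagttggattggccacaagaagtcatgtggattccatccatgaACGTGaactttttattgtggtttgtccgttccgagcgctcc
HOXD4: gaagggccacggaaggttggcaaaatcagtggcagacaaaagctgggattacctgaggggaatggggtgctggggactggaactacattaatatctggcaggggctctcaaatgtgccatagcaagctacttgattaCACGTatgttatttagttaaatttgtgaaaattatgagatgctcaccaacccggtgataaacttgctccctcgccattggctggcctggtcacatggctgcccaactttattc
HOXD1: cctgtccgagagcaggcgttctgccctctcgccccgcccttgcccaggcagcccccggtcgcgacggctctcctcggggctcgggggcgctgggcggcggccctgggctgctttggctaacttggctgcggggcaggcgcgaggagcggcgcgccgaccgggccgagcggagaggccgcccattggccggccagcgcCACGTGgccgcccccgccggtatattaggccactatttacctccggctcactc
HOXC4 held 1 match, beginning at position -41 from the start, and HOXD4 held 1, at -113. HOXD1 held CACGTG at -53, a palindrome that reads as the motif on both strands, so that its 2 matches overlap. ACGTG on either strand was present in 18.5% of the 35116 windows of the same length in the table. Among the 10 HOX genes with a window, HOXA2, HOXC5, HOXD10, HOXD11 and HOXD13 also held it, while HOXB1 and HOXD12 did not. The match was thus not particular to the HOX genes called lower in VHL cells. TGATGNAA, the element bound by ATF4 with C/EBP factors, and TGANTCA, the AP-1 site, were searched on both strands too. Neither was in these windows, while 3.14% of all windows held TGATGNAA and 6.57% held TGANTCA. A match is a description of the letters and shows no binding.

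HOXB6 and HOXB5 are neighbours that differed between the lines in opposite directions. HOXB6, which is active in the mouse lateral plate and in blood progenitors, was 7.57, 7.61 and 7.76 in deprived VHL cells, against 8.03, 7.96 and 7.76 in deprived Vec cells. In control medium HOXB6 was 7.54, 7.52 and 7.47 in control VHL cells, against 7.88, 7.89 and 7.99 in control Vec cells. It was lower in VHL cells, with differences of -0.27 ± 0.07 log2 units in deprived medium (adjusted p = 0.00625) and -0.41 ± 0.07 in control medium (adjusted p = 0.000268), with arrays of the lines overlapping in neither medium, though the highest VHL and the lowest Vec array in deprived medium both read 7.76. A second HOXB6 probe set, with a mean of 3.95 and so under the background level, gave -0.09 and 0.04 in the same comparisons. Of HOXB5, with the array values above, the lines did not overlap, and it was higher in VHL cells by 0.40 ± 0.05 in deprived medium (adjusted p = 3.08e-05) and 0.39 ± 0.05 in control medium (adjusted p = 3.85e-05). Its second probe set was also higher, by 0.30 in deprived and 0.25 in control medium. HOXB5 and HOXB6 both overlap the antisense gene HOXB-AS3 in the annotation.

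HOXB7, the gene of the mouse ureteric bud, was 10.18, 10.13 and 10.18 in deprived VHL cells, against 9.74, 9.61 and 9.83 in deprived Vec cells. In control medium HOXB7 was 10.01, 10.09 and 10.19 in control VHL cells, against 9.88, 9.75 and 9.85 in control Vec cells. Every VHL array was above every Vec array, and the differences were 0.44 ± 0.07 in deprived medium (adjusted p = 8.28e-05) and 0.27 ± 0.07 in control medium (adjusted p = 0.00403). The 2 other probe sets of HOXB7 were higher in VHL cells in both media, by 0.54 and 0.38 in deprived and 0.32 and 0.28 in control medium.

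Other HOX genes passed the test in one medium. In deprived medium HOXA2 was higher in VHL cells, 6.76, 6.70 and 6.87 in deprived VHL cells, against 6.63, 6.59 and 6.54 in deprived Vec cells, a difference of 0.19 ± 0.07 (adjusted p = 0.0456). That call was lost without any 1 array other than replicates 1 and 2 of control Vec cells and replicate 2 of deprived VHL cells, with adjusted p up to 0.172. HOXD9, a posterior gene of limb and lumbar patterning in the mouse, was lower in VHL cells in control medium, 7.71, 7.89 and 7.71 in control VHL cells, against 8.02, 8.06 and 8.04 in control Vec cells. The difference was -0.27 ± 0.07 (adjusted p = 0.00415), while a second HOXD9 probe set, under the background level, gave 0.03. In deprived medium HOXD9 was 7.80, 7.92 and 7.93 in deprived VHL cells, against 7.88, 7.83 and 8.03 in deprived Vec cells, and these values overlapped. HOXC5 was lower in VHL cells in control medium, 6.54, 6.52 and 6.55 in control VHL cells, against 6.84, 6.68 and 6.78 in control Vec cells, a difference of -0.23 ± 0.07 (adjusted p = 0.019). The HOXC5 call was lost without replicate 1 or 3 of control Vec cells or replicate 2 of control VHL cells, with adjusted p of 0.0530 to 0.0769. In deprived medium HOXC5 was 6.75, 6.67 and 6.57 in deprived VHL cells, against 6.62, 6.40 and 6.69 in deprived Vec cells, with overlap. A call in one medium and not in the other does not show that the lines' difference depends on the medium, and the test of that dependence, given below, called none of these genes.

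Calls were also made for 3 genes at background level, for which no fold is given. HOXB8, whose loss makes mice groom to excess, was 4.95, 5.11 and 5.06 in control VHL cells, against 4.80, 4.82 and 4.71 in control Vec cells, higher in VHL cells by 0.26 ± 0.07 (adjusted p = 0.00959). Its values in deprived medium were 4.86, 4.93 and 4.83 in deprived VHL cells, against 4.79, 4.82 and 4.54 in deprived Vec cells, which did not overlap but missed the threshold (adjusted p = 0.107). HOXC8, which patterns brachial motor neurons in the mouse, was 5.33, 5.06 and 5.01 in deprived VHL cells, against 5.25, 5.33 and 5.56 in deprived Vec cells. These arrays overlapped, and the difference was -0.25 ± 0.10 (adjusted p = 0.0497). The HOXC8 call was lost without any 1 array other than replicate 2 of control Vec cells and replicate 1 of deprived Vec and of deprived VHL cells, with adjusted p up to 0.214, and with a fit of the groups compared alone (adjusted p = 0.0856). In control medium HOXC8 was 5.35, 5.46 and 5.46 in control VHL cells, against 5.56, 5.32 and 5.49 in control Vec cells. HOXD10 was 4.82, 4.85 and 4.96 in deprived VHL cells, against 4.62, 4.62 and 4.71 in deprived Vec cells, higher by 0.22 ± 0.06 in VHL cells (adjusted p = 0.00468). In control medium it was 4.63, 4.54 and 4.65 in control VHL cells, against 4.70, 4.63 and 4.76 in control Vec cells, with overlap.

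HOXB2 and 4 more expressed HOX genes passed no test between the lines. HOXB2 differed by -0.07 ± 0.06 in deprived and -0.11 ± 0.06 in control medium. HOXB9, which patterns the ribs in the mouse, was 6.70, 6.54 and 6.65 in deprived VHL cells, against 6.65, 6.58 and 6.46 in deprived Vec cells, and 6.40, 6.47 and 6.60 in control VHL cells, against 6.58, 6.51 and 6.56 in control Vec cells. HOXC10, a gene of lumbar motor neurons in the mouse, was 9.94, 9.83 and 9.90 in deprived VHL cells, against 9.72, 9.79 and 9.80 in deprived Vec cells, and 9.92, 9.88 and 9.91 in control VHL cells, against 9.94, 9.91 and 9.76 in control Vec cells. These 2 genes differed by at most 0.12 between the lines, with an upper limit of the 95% interval of 0.24 for HOXC10 in deprived medium. HOXC11, of the kidney-forming paralogue group, was 7.45, 7.27 and 7.34 in deprived VHL cells, against 7.42, 7.26 and 7.36 in deprived Vec cells, and 7.31, 7.22 and 7.15 in control VHL cells, against 7.22, 7.33 and 7.14 in control Vec cells. HOXC13, which is needed for hair and nails in mice, was 6.28, 6.23 and 6.40 in deprived VHL cells, against 6.32, 6.24 and 6.38 in deprived Vec cells, and 6.18, 6.22 and 6.39 in control VHL cells, against 6.34, 6.20 and 6.44 in control Vec cells. HOXC11 differed by 0.01 ± 0.07 in deprived and -0.01 ± 0.07 in control medium, and HOXC13 by -0.01 ± 0.08 and -0.06 ± 0.08. The 6 other genes at background level, HOXB1, HOXB3, HOXB13, HOXD11, HOXD12 and HOXD13, had group means between 4.02 and 6.16 and were not called in these comparisons.

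**Figure D3:**
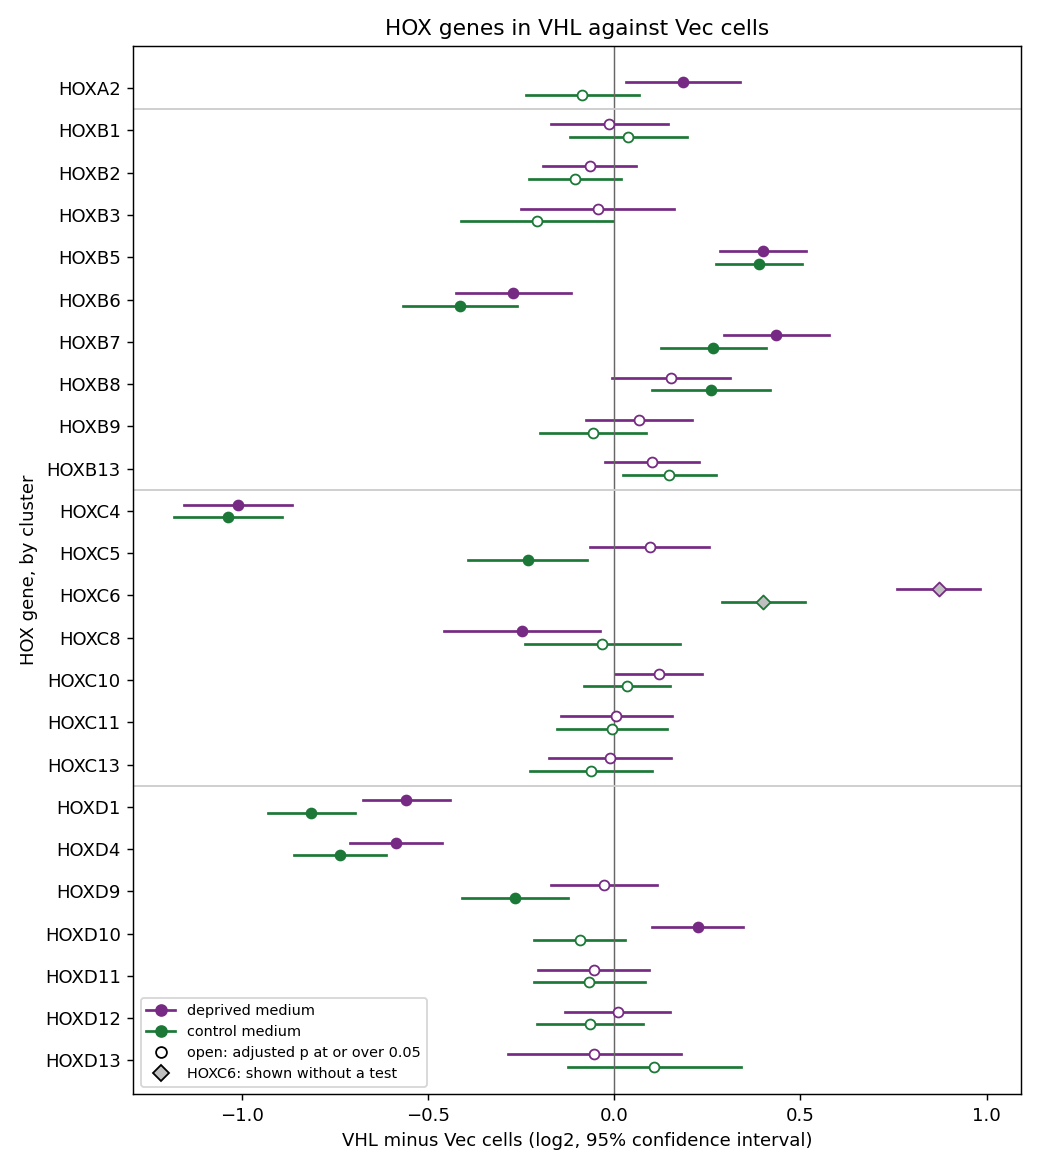
VHL minus Vec cells for each of the 24 HOX genes in deprived medium (purple) and control medium (green), as log2 differences with 95% confidence intervals; filled points were called at an adjusted p under 0.05, and HOXC6 is drawn without a test. HOXC4 lies near -1 in both media, HOXD1 and HOXD4 follow, and HOXB5 and HOXB7 lie above 0.

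HOXC6, which acts in mouse limb, thoracic and mammary development, was higher after deprivation in VHL cells and lower in Vec cells. Its arrays read 8.81, 8.86 and 8.70 in deprived VHL cells, against 8.59, 8.64 and 8.59 in control VHL cells. Those of Vec cells read 7.95, 7.95 and 7.85 in deprived Vec cells, against 8.21, 8.22 and 8.19 in control Vec cells. In VHL cells all deprived arrays were above the control arrays, and in Vec cells all deprived arrays were below them. The responses were 0.18 ± 0.05 in VHL cells and -0.29 ± 0.05 in Vec cells, a difference of 0.47 ± 0.07. Of all genes 57, or 0.476%, had a difference of responses at least as large in size. These values chose HOXC6 and stand without a test. The same arrays put the level of HOXC6 in VHL minus Vec cells at 0.87 in deprived and 0.40 in control medium.

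The average over the media was not used to choose HOXC6. In this balanced design it is orthogonal to both responses and to their difference, although it shares their estimate of the spread. Averaged over the media, HOXC6 was higher in VHL cells by 0.64 ± 0.04 (1.55-fold, adjusted p = 4.41e-09), higher on 6 of 6 VHL arrays than on any Vec array, where 54.8% of all genes were called. A line difference at least as large was found in 10.7% of all genes. Averaged over the lines, deprived minus control medium was -0.05 ± 0.04 for HOXC6. Since HOXC6 was flagged for responses in opposite directions, which by itself makes this average small, the value is a description without a test. HOXC6 had 1 probe set, of a kind that can also read related transcripts. The annotated spans of HOXC4, HOXC5 and HOXC6 overlap, and where the probes lie is not known here, so signal from shared transcripts cannot be told apart. Side by side, the responses were -0.10 for HOXC4, 0.13 for HOXC5 and 0.18 for HOXC6 in VHL cells, and -0.13, -0.20 and -0.29 for the same genes in Vec cells.

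**Figure D4:**
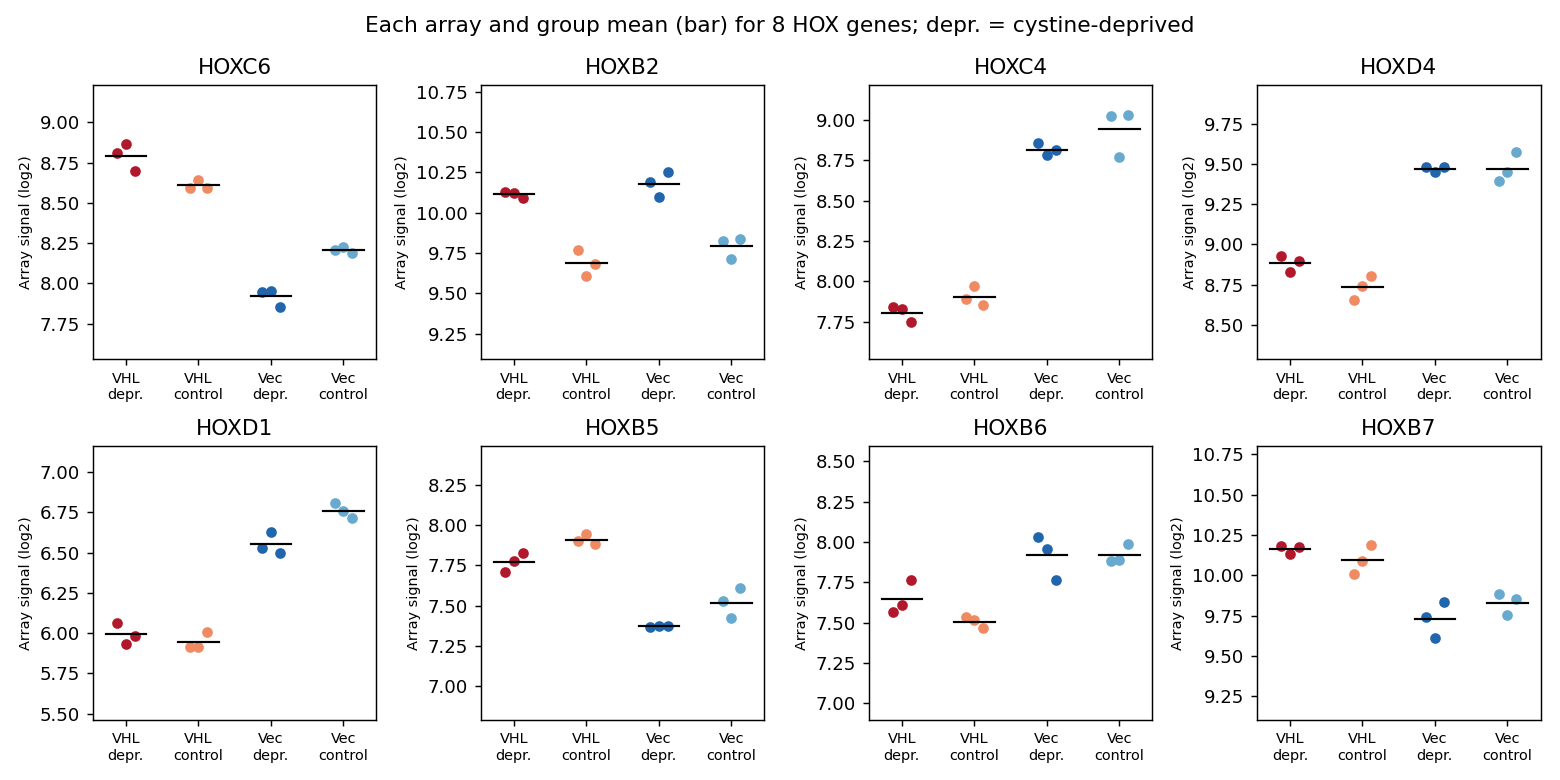
Levels on each array (log2 intensity) of 8 HOX genes in the 4 groups, one panel per gene, with one point per array and a bar at the group mean. HOXB2 is higher in deprived than in control cells of both lines, HOXC6 has its 3 highest values in deprived VHL cells and its 3 lowest in deprived Vec cells, and HOXC4 and HOXD4 are lower in all VHL arrays.

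None of the 23 HOX genes other than HOXC6, which was not tested, was called for a difference between the lines in its response. By limma 0 of the 23 genes passed, against 0.134% of all genes, so the count of 0 is not particular to HOX genes. The smallest adjusted p among the 23 was 0.225. The differences ran from -0.22 to 0.33, with 95% intervals reaching from -0.51 to 0.55. As a description, the VHL response minus the Vec response was above 0 in 14 of the 14 expressed HOX genes other than HOXC6, with a median of 0.13, and in 4 of 9 at background level, with a median of -0.05. Among all genes above background 51.8% were above 0 and the median was 0.01. The 14 genes were measured on the same 12 arrays and are not independent. Among them HOXA2, HOXB9, HOXC5, HOXC13 and HOXD1 had means under the highest olfactory receptor mean. HOXD1 is among them through its Vec arrays alone, since 0 of its 6 VHL arrays lay above background. Its sign therefore sets a fall in Vec cells beside a VHL signal at background level. With quantile normalization or centring of each array on its median 12 of the 14 were above 0, without single arrays 11 to 14 were, and with _x_at and _s_at probe sets dropped, 8 of the 8 genes still above background were. In that setting HOXB6 and HOXD1 are read by dimmer probe sets under the background level, and both of these were below 0.

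Genes that act with or on HOX genes were counted from lists of HOX partners, chromatin regulators, retinoic acid signalling, kidney and axial patterning genes, and genes lying near the 4 clusters. The shares of all genes called, given above, were 47.2% and 46.1% between the lines (deprived, then control medium) and 11.6% and 4.18% with deprivation (VHL, then Vec cells). Each list gene named for a difference between the lines had an adjusted p of at most 0.00112 in both media. Of 11 TALE genes, the DNA-binding partners of HOX proteins and their relatives, 8 were measured. In VHL relative to Vec cells 1 higher and 3 lower were called in deprived medium and 1 higher and 3 lower in control medium; with deprivation, 0 higher and 1 lower in VHL cells and 1 higher and 0 lower in Vec cells. TGIF2, a TALE repressor, was lower in VHL cells, with differences of -0.59 in deprived and -0.70 in control medium, and its relative TGIF1 was higher by 0.38 and 0.48. Of 30 Polycomb genes 22 were measured. In VHL relative to Vec cells 5 higher and 9 lower were called in deprived medium and 2 higher and 10 lower in control medium; with deprivation, 6 higher and 3 lower in VHL cells and 1 higher and 0 lower in Vec cells. PHC2, a Polyhomeotic subunit of the Polycomb complex that ubiquitinates histones, was lower in VHL cells, with differences of -0.87 in deprived and -0.96 in control medium. PCGF3, a subunit of a variant Polycomb complex, was lower, with differences of -0.73 and -1.04. Of 21 Trithorax and HOX-activating genes 17 were measured. In VHL relative to Vec cells 2 higher and 7 lower were called in deprived medium and 2 higher and 6 lower in control medium. With deprivation, 3 higher and 1 lower were called in VHL cells and 0 higher and 0 lower in Vec cells. NSD1, a histone methyltransferase, was lower in VHL cells, with differences of -0.79 in deprived and -0.53 in control medium.

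Of 21 retinoic acid signalling genes 17 were measured. In VHL relative to Vec cells 4 higher and 2 lower were called in deprived medium and 4 higher and 1 lower in control medium. With deprivation, 0 higher and 0 lower were called in VHL cells and 0 higher and 0 lower in Vec cells. ALDH1A1 and ALDH1A3, enzymes that make retinoic acid, were higher in VHL cells in both media, by 1.62 and 1.67 for ALDH1A1 and by 1.73 and 1.86 for ALDH1A3 (deprived, then control medium). DHRS3, a retinal reductase, was higher by 1.18 and 1.24. Of 23 patterning genes of kidney and axial position 15 were measured. In VHL relative to Vec cells 2 higher and 7 lower were called in deprived medium and 0 higher and 6 lower in control medium; with deprivation, 0 higher and 3 lower in VHL cells and 0 higher and 2 lower in Vec cells. EMX2, a homeobox gene of the urogenital tract, averaged 4.75 in deprived and 5.19 in control VHL cells, under the background level, against 8.39 and 8.50 in Vec cells. WT1, a zinc finger factor of the developing kidney, was also under the background level in VHL cells, at 4.62 in deprived and 3.93 in control medium, and averaged 6.78 in deprived Vec cells. For both genes the background level limits the difference on the VHL side. SALL1, a zinc finger factor of the nephron progenitors, was lower in VHL cells, with differences of -0.82 in deprived and -0.72 in control medium. It fell with deprivation by 0.40 in VHL cells (adjusted p = 0.000845) and by 0.31 in Vec cells (adjusted p = 0.0111). The SALL1 call in Vec cells was lost without replicate 2 of control Vec cells (adjusted p = 0.0512). Of 32 genes near the clusters 29 were measured. In VHL relative to Vec cells 11 higher and 6 lower were called in deprived medium and 9 higher and 6 lower in control medium; with deprivation, 7 higher and 2 lower in VHL cells and 4 higher and 0 lower in Vec cells. CHN1, near HOXD, was lower in VHL cells, with differences of -0.70 in deprived and -0.83 in control medium, and WIPF1, on the same side, differed by -1.59 and -1.88. Under other processing the WIPF1 differences shrank to as little as -0.65 in deprived and -0.84 in control medium. TAX1BP1, also of this list, was higher in VHL cells, by 0.58 in deprived and 0.60 in control medium.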

How the data were processed

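Total RNA of 12 samples was amplified, biotin-labelled and hybridised to Affymetrix arrays, 3 per group. The deposited values are log2 intensities per probe set, read as log2 from their range (3.26 to 14.79); the authors' background correction and normalization are not given in the sources used here, and no detection calls or depth come with them. The number of arrays limits the precision. Of 22215 probe sets, 19064 named 1 gene and were used, 1043 named several genes and 2108 none. Symbols were updated through RefSeq where they matched. The probe set with the highest mean stood for each of 11963 genes.

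A mean per group was fitted with limma 3.58.1 in R 4.3.3 (lmFit, eBayes) over all 12 arrays, with 8 residual degrees of freedom, two-sided, and Benjamini-Hochberg adjustment over all genes. A gene was called at an adjusted p under 0.05. The procedure was tested on simulated data. Replicate numbers did not pair the samples. Every HOX gene is named, with array values for those expressed or called. From each list some or all of the 3 called members with the smallest adjusted p are named. The members, HOXC6, the lists and the tests were chosen with earlier results of these data known.

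Alternatives were other normalizations, probe set rules, background thresholds, moderation, fits on the groups compared, the replicate number as a block and leaving out each array. The values of further probe sets, the count of signs of the response difference and the alternatives for the average over the lines were added after the data were seen. Promoter windows come from RefSeq (GRCh38.p14) and matched 10 of the 24 genes. Single genes are adjusted over all genes, never over the HOX genes alone.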

Additional observations from a re-analysis of the deposited data

Results flagged for a closer look

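The response of HOXC6 to cystine deprivation went in opposite directions in the lines: 0.18 log2 units in VHL cells and -0.29 in Vec cells, with all 3 arrays of each deprived group on its own side of the controls. The difference of 0.471 drew attention to it because the lines' effects under the same contrast differ. HOXC6 was chosen for this difference, which is therefore a description. Without single arrays it ran from 0.43 to 0.52. No group of 3 arrays was examined for a sample far from the others.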

How the results depend on the processing

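The count of HOX genes called with deprivation in Vec cells, 3, depended on the processing: it was 1 when _x_at and _s_at probe sets, which can read related transcripts, were dropped (18 genes left; 5.56%, against 2.78% of all genes), 1 with a fit of the groups compared alone (4.35%, against 2.60%) and 1 with the replicate number as a block (4.35%, against 3.63%), and ran from 1 to 2 without single arrays. In VHL cells the count of 2 was 1 of 14 without background-level genes (7.14%, against 19.7% of all genes), a setting that leaves out HOXD10. It was 3 with quantile normalization or centring of each array on its median (13.0%, against 11.6% and 11.9%). Without single arrays it was 2 to 3 (8.70% to 13.0%, against 6.39% to 11.7%). Between the lines, without _x_at and _s_at probe sets, 3 of 18 genes were called in deprived and 5 of 18 in control medium, instead of 9 each (16.7% and 27.8%, against 41.9% and 40.9% of all genes); without single arrays the counts were 7 to 9 and 8 to 10. The number of expressed HOX genes, 15, was 7 with the median of all genes as threshold and 8 of 18 without _x_at and _s_at probe sets. Dimmer probe sets turned the direction for HOXD1 in Vec cells (0.10 with deprivation), and between the lines in control medium for HOXB6 (0.0427), HOXD1 (0.00936) and HOXD9 (0.0258), and HOXB5 averaged over the lines with deprivation (0.113); without _s_at probe sets TAX1BP1 in VHL cells gave -0.17 with deprivation. The cause was not tested. HOXB2 kept its direction and call in both lines under all 20 alternatives (0.39 to 0.47 in VHL and 0.35 to 0.43 in Vec cells). HOXC6 averaged over the media kept its call under all 18, and its average over the lines ran from -0.07 to -0.03. Dropping _x_at and _s_at probe sets is not among these 18, because the only HOXC6 probe set is of that kind. Other scalings moved the median of all genes by at most 0.03. Numbers did not pair the samples: the 18 same-numbered pairs of deviations correlated at -0.27 to 0.24, and 5 of 12 arrays correlated best with their own number. With the replicate block the calls of HOXA2 and HOXD1 in Vec cells (adjusted p = 0.0529 and 0.0796) and of HOXC8 between the lines in deprived medium (0.0628) were lost; no other count of HOX calls moved by more than 1.5 times.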

Other observations

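Probe sets assigned to both HOXD3 and HOXD4 stand outside the comparisons above. The brightest of 3, with a mean of 6.74, was lower in VHL cells, with differences of -0.26 in deprived medium (limma adjusted p = 0.0128) and -0.29 in control medium (adjusted p = 0.00745), the direction of the HOXD4 probe set. The other 2, with means of 5.38 and 4.23, lay under the background level. KRT19, a keratin of renal tubule and duct epithelium, was lower in VHL cells, with differences of -1.48 in deprived and -1.36 in control medium, and CDH16, the kidney-specific cadherin, was higher by 1.22 and 1.09.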
